A study of Mus musculus with 24 samples.

Results

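Zeitgeber time (ZT) counts hours from lights on, so ZT23 is the end of the dark phase and ZT03 lies early in the light phase. The step across lights-on was described here by 8 arrays of a series of 24: the 4 arrays whose titles give ZT03, set against the 4 whose titles give ZT23. The 8 arrays were taken by their time labels, and all 22180 genes named by a probe set of a single symbol were tested. Both groups were wild-type C57Bl/6 males aged 8 weeks, housed in 12 h of light and 12 h of dark, whose hearts were taken, and the labels call the tissue myocardium and the arrays of a group biological replicates. Total RNA was extracted with TRIzol from snap-frozen tissue, and biotinylated cRNA from 500 ng of it was hybridised to Affymetrix mouse gene arrays. The other 16 arrays, 4 each at ZT07, ZT11, ZT15 and ZT19, give the course over the day, and ZT15 against ZT11 gives the opposite light change, the lights-off step, on arrays that the lights-on step does not use. Each mouse gave a single time, so a step is a difference between groups of animals.

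The clock of a heart cell is a feedback loop of transcription. Arntl (BMAL1) and Clock form an activator that binds E-boxes (CACGTG) and switches on the repressors of the Per and Cry families, and also Nr1d1 and Nr1d2, the genes of the REV-ERB nuclear receptors. The REV-ERBs compete with ROR receptors at ROR elements and repress Arntl, Nfil3 and, in part, Cry1. Mice eat mainly in the dark, so the step from ZT23 to ZT03 takes them from the end of the feeding and active phase into rest, with lower body temperature and, later in the day, the endocrine state of fasting.

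Values were read as log2 and are centred, so each is a difference from the probe set's own median over the 24 arrays. No level is kept: dim genes could not be told from bright ones, genes cannot be ranked by level, and the labelled tissue could not be checked against the level of its markers. Steps are given as the ZT03 mean minus the ZT23 mean with the standard error (SE), and a fold is 2 to the power of the step, on the assumption that the logarithm has base 2. A gene was called, and is said to have risen or fallen, where limma's moderated test across all 22180 genes gave a Benjamini-Hochberg adjusted p below 0.05. The fit used all 24 arrays for 1 shared estimate of the spread (18 residual degrees of freedom). In bulk tissue, fewer cells of a type and less RNA per cell cannot be told apart. The labels give no batch, so a batch shared by the arrays of a time cannot be told apart from time, nor can an effect of light be told apart from one of the clock.

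ZT23 replicate 4 had the widest spread of the 8 arrays (SD 0.155 over all probe sets, against 0.108 to 0.123 on the other 7) and the lowest array weight in limma (0.573). Genes described below that lose their call without it are named with it. Of the 16 cell type marker lists, 15 held no called gene, but only 0.685% of all genes were called, so short lists would mostly hold none. The fibroblast list was the exception, with 2 of 12 genes called. Platelet markers were lower at ZT03 for 10 of 10 measured genes (median step -0.23), with array means of -0.140 to -0.075 at ZT03 and 0.078 to 0.401 at ZT23. Endothelial markers were higher for 11 of 12 (median 0.21), with array means of 0.043 to 0.130 at ZT03 and -0.139 to -0.037 at ZT23. Thymus markers were lower for 5 of 5 (median -0.065), with array means of -0.042 to -0.014 at ZT03 and 0.033 to 0.063 at ZT23. Over all genes, 50.4% were higher at ZT03 and 49.6% lower. The part of these cell types in the other results was not tested. Among 7 listed red cell genes, 1 was measured.

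Across lights-on, 124 genes rose (0.559% of those tested) and 28 fell (0.126%), 152 in all (0.685%). The changes were small: the median size among called genes was 0.38 on the log2 scale, a 1.30-fold change. Risers of 1.5-fold or more numbered 13 and fallers 2, and of the called genes only Nr1d1 and Txnip passed 2-fold. In 149 of the 152, the 4 ZT03 arrays did not overlap the 4 ZT23 arrays, against 1522 of all 22180 genes (6.86%, made up of 4.05% with ZT03 higher and 2.81% with ZT03 lower). Risers made up 81.6% of calls, and 69.9%, 109 of 156, after quantile normalization. The median step over all genes was 0.00073, on arrays whose medians the deposited values already set near 0. Each of the 152 kept its sign in every one of the 34 alternative settings that tested it. The setting restricted to protein-coding genes tested 142 of them. Where the groups do not overlap, leaving out 1 array cannot reverse the sign, so the kept signs follow largely from the choice of genes. The number of calls depended on single arrays. It was 51 without ZT23 replicate 4, and 63, 73 and 94 without ZT03 replicates 3, 4 and 2. The other 5 steps between neighbouring times gave 15 to 69 calls in the same fit, and the difference between these counts was not tested.

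**Figure D1:**
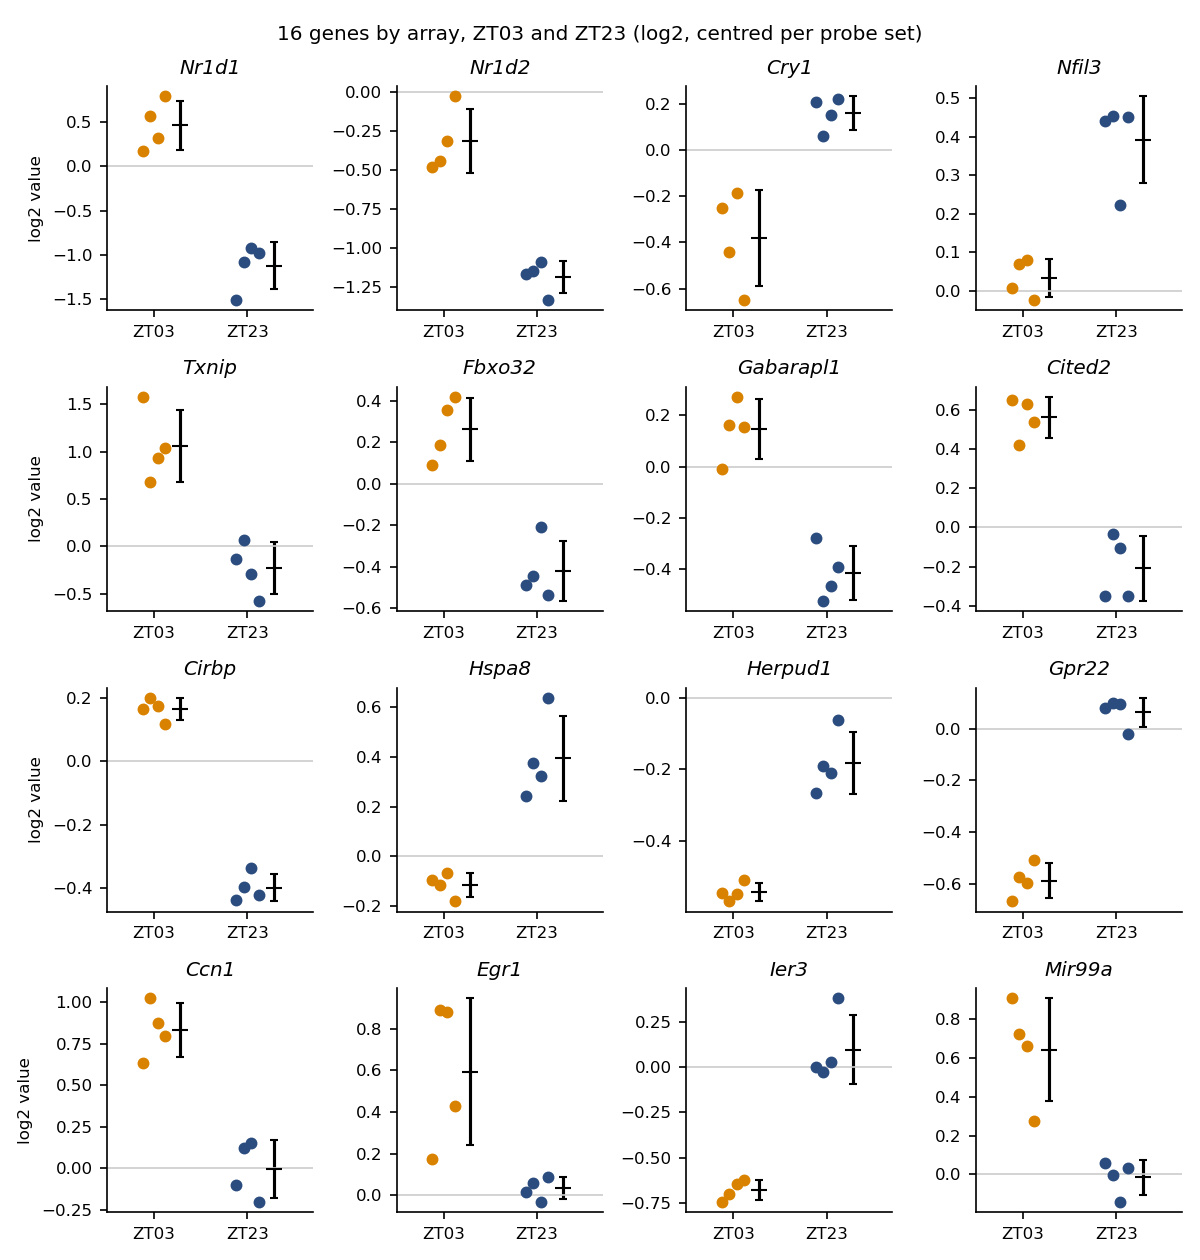
Log2 values (vertical axes, centred per probe set, scales differ by panel) of 16 genes on the 4 ZT03 arrays (left, orange) and the 4 ZT23 arrays (right, blue), with the mean and SD in black beside the points. In none of the 16 do the groups overlap. Nr1d1 has the widest gap, with means of 0.46 at ZT03 and -1.12 at ZT23.

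Within the clock lists, the called genes were the REV-ERB genes Nr1d1 and Nr1d2, which rose, and Cry1 and Nfil3, which fell. Whether the REV-ERBs had a part in these falls was not tested. Nr1d1 had values of 0.17, 0.57, 0.32 and 0.79 at ZT03, against -1.51, -1.08, -0.92 and -0.98 at ZT23. The step was 1.59 ± 0.142 (SE, 4 arrays each), 3.00-fold higher with an adjusted p of 5.26e-06, the largest called change of all genes. Nr1d2, its paralog, had -0.48, -0.44, -0.31 and -0.02 at ZT03, against -1.17, -1.15, -1.09 and -1.34 at ZT23 (0.87 ± 0.106, 1.83-fold, adjusted p = 0.000459). No ZT03 array of either gene came near a ZT23 array. Both calls held when any of the 24 arrays was left out.

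Cry1, the cryptochrome that represses the activator late in the loop, moved the other way. It had -0.25, -0.44, -0.19 and -0.65 at ZT03, against 0.20, 0.06, 0.15 and 0.22 at ZT23, a fall of 0.54 on the log2 scale (SE 0.080, 1.46-fold lower, adjusted p = 0.00161). All 4 ZT03 values were negative and all 4 ZT23 values positive. In a fit of the 8 arrays alone, its adjusted p was 0.0634. Nfil3, which encodes a repressor at D-boxes (TTATGNAA), had 0.01, 0.07, 0.08 and -0.02 at ZT03, against 0.44, 0.45, 0.22 and 0.45 at ZT23 (step -0.36 ± 0.074, adjusted p = 0.0233). The Nfil3 groups did not overlap, but its call was lost when any of 6 arrays was left out (ZT03 replicates 1, 3 and 4, ZT23 replicates 1, 2 and 4), with an adjusted p of up to 0.0922.

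The 250 bases before the start sites of Cry1 and Nfil3 are shown because these 2 called repressors each hold a clock element there; they were chosen after the motif search. Both are on the minus strand of GRCm38.p6, taken from RefSeq and written 5′ to 3′, and capitals mark the match: an E-box in Cry1 (chr10:85185055-85185304), beginning 60 bases before the start site, and, in Nfil3 (chr13:52981040-52981289), the ROR element core NTAGGTCA on the opposite strand, 12 bases before it.
Cry1: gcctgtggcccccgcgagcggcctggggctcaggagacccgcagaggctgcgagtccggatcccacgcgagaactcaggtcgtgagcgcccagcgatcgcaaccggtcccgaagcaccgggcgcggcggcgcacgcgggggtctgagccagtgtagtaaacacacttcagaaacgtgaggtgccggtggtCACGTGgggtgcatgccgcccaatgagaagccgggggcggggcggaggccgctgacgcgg
Nfil3: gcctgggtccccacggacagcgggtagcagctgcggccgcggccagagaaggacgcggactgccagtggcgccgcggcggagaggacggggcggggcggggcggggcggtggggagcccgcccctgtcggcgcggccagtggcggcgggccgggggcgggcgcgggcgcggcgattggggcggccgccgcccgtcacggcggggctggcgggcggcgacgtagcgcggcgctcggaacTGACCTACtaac
Among the 96 risers with a sequence, 8 held an E-box (8.33%) and 3 a ROR element core (3.12%). Among the 23 fallers with a sequence, 1 held an E-box (4.35%) and 2 a ROR element core (8.70%). Over 27025 genes with a sequence, both strands searched, the shares were 6.86% and 2.53%. The D-box TTATGNAA was held by 2.08% of risers, no faller and 3.63% of all genes, the cyclic AMP response element TGACGTCA by 2.08%, none and 1.77%, the heat shock element GAANNTTC by 7.29%, 4.35% and 7.73%, and its inverted form TTCNNGAA by 7.29%, 8.70% and 8.11%. The shares among risers were thus close to those of all genes, and those of fallers rest on 0 to 2 genes. These letters are descriptions of a short window and show no binding.

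The clock activators were not called at lights-on. Arntl had 1.55, 1.35, 1.49 and 1.30 at ZT03, against 1.25, 1.40, 1.41 and 1.15 at ZT23, and its groups overlapped (step 0.12, adjusted p = 0.792). Its means at these 2 times, 1.42 and 1.30, were the highest of the 6, and its lowest was at ZT11 (-1.13). Clock differed by 0.04 (adjusted p = 0.893) and Npas2, which can replace Clock as partner, by 0.15 (adjusted p = 0.688). The other members were Arntl2, a paralog of Arntl (-0.15, adjusted p = 0.379), and the receptor genes Rora (0.09, adjusted p = 0.698) and Rorb (0.02, adjusted p = 0.952). No gene of the 6 measured in the list of activators and ROR receptors was called.

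The D-box activators and the Per genes were near the bottom of their course on both sides of lights-on. Dbp, the activator at D-boxes with the widest swing here, had -1.16, -1.17, -1.11 and -0.76 at ZT03, against -1.19, -0.83, -1.20 and -1.12 at ZT23 (step 0.03, adjusted p = 0.942). Per1 differed by 0.06 (adjusted p = 0.96), Per3 by 0.04 (adjusted p = 0.922), Tef by -0.05 (adjusted p = 0.795) and Hlf by -0.28 (adjusted p = 0.15). Ciart, a repressor of the activator complex, had a step of -0.18 (adjusted p = 0.557), and Cry2 one of -0.12 (adjusted p = 0.67). Bhlhe40 (-0.11, adjusted p = 0.765) and Bhlhe41 (-0.08, adjusted p = 0.854), which compete for E-boxes, were not called, nor were Csnk1e, Btrc, Fbxl21 and Timeless of the kinase and ligase list, whose steps lay between 0.04 and 0.08. In all, 2 of the 9 measured repressors rose and 1 fell, and 1 of 4 D-box factors (Nfil3) fell. Of all genes, 0.559% rose and 0.126% fell. Per2 was not analysed here. Usp2, a deubiquitinase that acts on clock proteins and is itself an output of the clock, fell by 0.41 on the log2 scale (adjusted p = 0.00676).

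**Figure D2:**
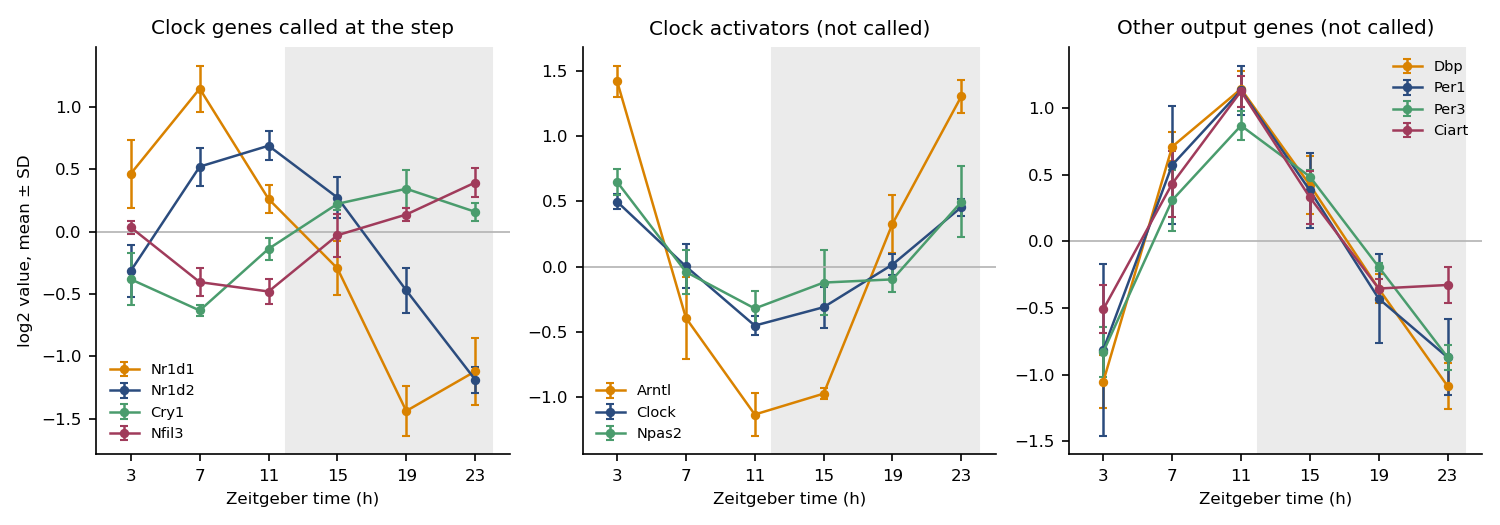
Mean log2 value (vertical axis) with SD over 4 arrays at each zeitgeber time (horizontal axis, hours, dark phase shaded) for the called clock genes (left), activators (middle) and further clock output genes (right). Nr1d1 climbs to 1.15 at ZT07 and is lowest at ZT19 (-1.44), whereas Arntl is high at both ZT03 and ZT23, and Dbp is low at both.

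Over the day, the 2 REV-ERB genes were caught at different points of their courses. Nr1d1 means were 0.46, 1.15, 0.26, -0.30, -1.44 and -1.12 from ZT03 to ZT23, so ZT03 lay below the highest mean, at ZT07, and ZT23 just above the lowest, at ZT19. Nr1d2 means were -0.31, 0.52, 0.69, 0.27, -0.47 and -1.19, with the trough at ZT23 and the highest mean at ZT11. Cry1 means were -0.38, -0.63, -0.14, 0.22, 0.34 and 0.16, with the highest mean at ZT19.

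The muscle ubiquitin ligase genes and an autophagy gene of the FOXO list rose. The FOXO transcription factors enter the nucleus when insulin signalling falls and switch on genes of muscle protein breakdown and autophagy. Of 26 measured genes of the FOXO, atrophy and autophagy list, 4 rose and none fell (0.559% and 0.126% of all genes). In this list 23 lay above 0 (50.4% of all genes did), and the median step was 0.13, against 0.00073 over all genes. Array means of the list ran from -0.012 to 0.104 at ZT03 and from -0.162 to -0.067 at ZT23, without overlap. Such separation was not particular to this list. Array means of the glucose uptake, insulin signalling, sterol and fatty acid synthesis and heat shock lists did not overlap either, whereas those of oxidative phosphorylation did. Nor was the direction particular to it. Above 0 lay 22 of 25 genes of pyruvate dehydrogenase and the TCA cycle and 26 of 31 of ribosome biogenesis, but 19 of 44 of oxidative phosphorylation. Without ZT23 replicate 4, 3 of the 4 called genes of the FOXO list kept their call.

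Fbxo32 (atrogin-1), a muscle ubiquitin ligase subunit, had 0.09, 0.18, 0.36 and 0.42 at ZT03, against -0.49, -0.44, -0.21 and -0.54 at ZT23 (0.68 ± 0.094, 1.60-fold, adjusted p = 0.00104). Gabarapl1, an ATG8 protein of the autophagosome membrane, had -0.01, 0.16, 0.27 and 0.16 at ZT03, against -0.28, -0.52, -0.47 and -0.39 at ZT23 (0.56 ± 0.069, adjusted p = 0.000459). Neither gene had a ZT03 array below any ZT23 array, and neither lost its call without any 1 array. Trim63 (MuRF1), the other muscle ubiquitin ligase of the list and named after its values were seen, had 0.33, 0.44, 0.53 and 0.52 at ZT03, against -0.05, -0.10, 0.17 and -0.02 at ZT23 (0.45 ± 0.088, adjusted p = 0.0143). Its groups did not overlap, and the call was lost without ZT03 replicate 3 or 4 or ZT23 replicate 2 or 4 (adjusted p up to 0.0675). Ccng2, a cyclin that restrains the cell cycle, rose by 0.33 (adjusted p = 0.00574).

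Further risers lay outside the list. Cited2, a transcriptional coregulator that limits hypoxia signalling, had 0.65, 0.42, 0.63 and 0.54 at ZT03, against -0.35, -0.03, -0.11 and -0.35 at ZT23 (0.77 ± 0.111, 1.71-fold, adjusted p = 0.00138). Klhl24 and Hbp1 were chosen after their values were seen. Klhl24, a substrate adaptor of a ubiquitin ligase, rose by 0.52 (adjusted p = 0.00272) and Hbp1, a repressor of cell cycle genes, by 0.46 (adjusted p = 0.00194). For Cited2 and these 2 the ZT03 and ZT23 arrays did not overlap and no single array ended the call.

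Txnip, which restrains glucose uptake and whose transcript follows glucose and energy state, was the only called gene besides Nr1d1 to change over 2-fold. It had 1.58, 0.68, 0.93 and 1.03 at ZT03, against -0.13, 0.07, -0.28 and -0.57 at ZT23 (1.28 ± 0.223, 2.44-fold, adjusted p = 0.0069). The lowest ZT03 value lay well above the highest ZT23 value. Of the 21 genes of glucose uptake and glycolysis, 3 rose, against 0.559% of all genes: Txnip, Hk2 (hexokinase 2), by 0.21 (adjusted p = 0.0167), and Slc2a1 (the glucose transporter GLUT1), by 0.24 (adjusted p = 0.0131). The 2 probe sets of Slc2a1 disagreed, with steps of 0.56 and -0.09. Hk2 lost its call without ZT03 replicate 3 or 4 or ZT23 replicate 4 (adjusted p up to 0.0827), and Slc2a1 without ZT03 replicate 4 or ZT23 replicate 3 (adjusted p up to 0.0681).

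In the insulin and nutrient signalling list, 3 of 27 rose, against 0.559% of all genes: the receptor genes Insr (0.26, adjusted p = 0.0152) and Igf1r (0.38, adjusted p = 0.0493), and Sesn1 (0.37, adjusted p = 0.0287), a stress-induced inhibitor of mTORC1. None of the 3 was called without ZT23 replicate 4 (adjusted p = 0.076, 0.185 and 0.113). Pdp1, the phosphatase that activates pyruvate dehydrogenase, rose by 0.34 (adjusted p = 0.0415), alone among 25 genes of pyruvate dehydrogenase and the TCA cycle, and the call was lost without any of 11 arrays (adjusted p up to 0.123, and 0.104 without ZT23 replicate 4).

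Pdk4 and Ucp3 had large but uneven steps that did not pass the test. Steps of the 17 measured genes of fatty acid oxidation ran from -0.039 to 0.20. Pdk4, the kinase that shuts pyruvate dehydrogenase in fasting, had 1.27, 0.19, 0.69 and 1.06 at ZT03, against 0.24, -0.26, -0.29 and -0.12 at ZT23 (step 0.91 ± 0.235, adjusted p = 0.0775), with ZT03 replicate 2 inside the ZT23 range. Ucp3, a mitochondrial carrier induced by fatty acids, had 1.11, 0.02, 0.30 and 0.97 at ZT03, against -0.17, -0.22, -0.02 and -0.56 at ZT23 (0.84 ± 0.240, adjusted p = 0.123). No gene was called among 20 PPAR-responsive fuel genes, of which 16 lay above 0, nor among 17 genes of fatty acid oxidation, 22 of triglyceride handling, 16 of glycogen metabolism or 44 of oxidative phosphorylation, where 19 lay above 0. The 24 glucocorticoid-responsive genes had none either, with 12 above 0 and a median of 0.0072.

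**Figure D3:**
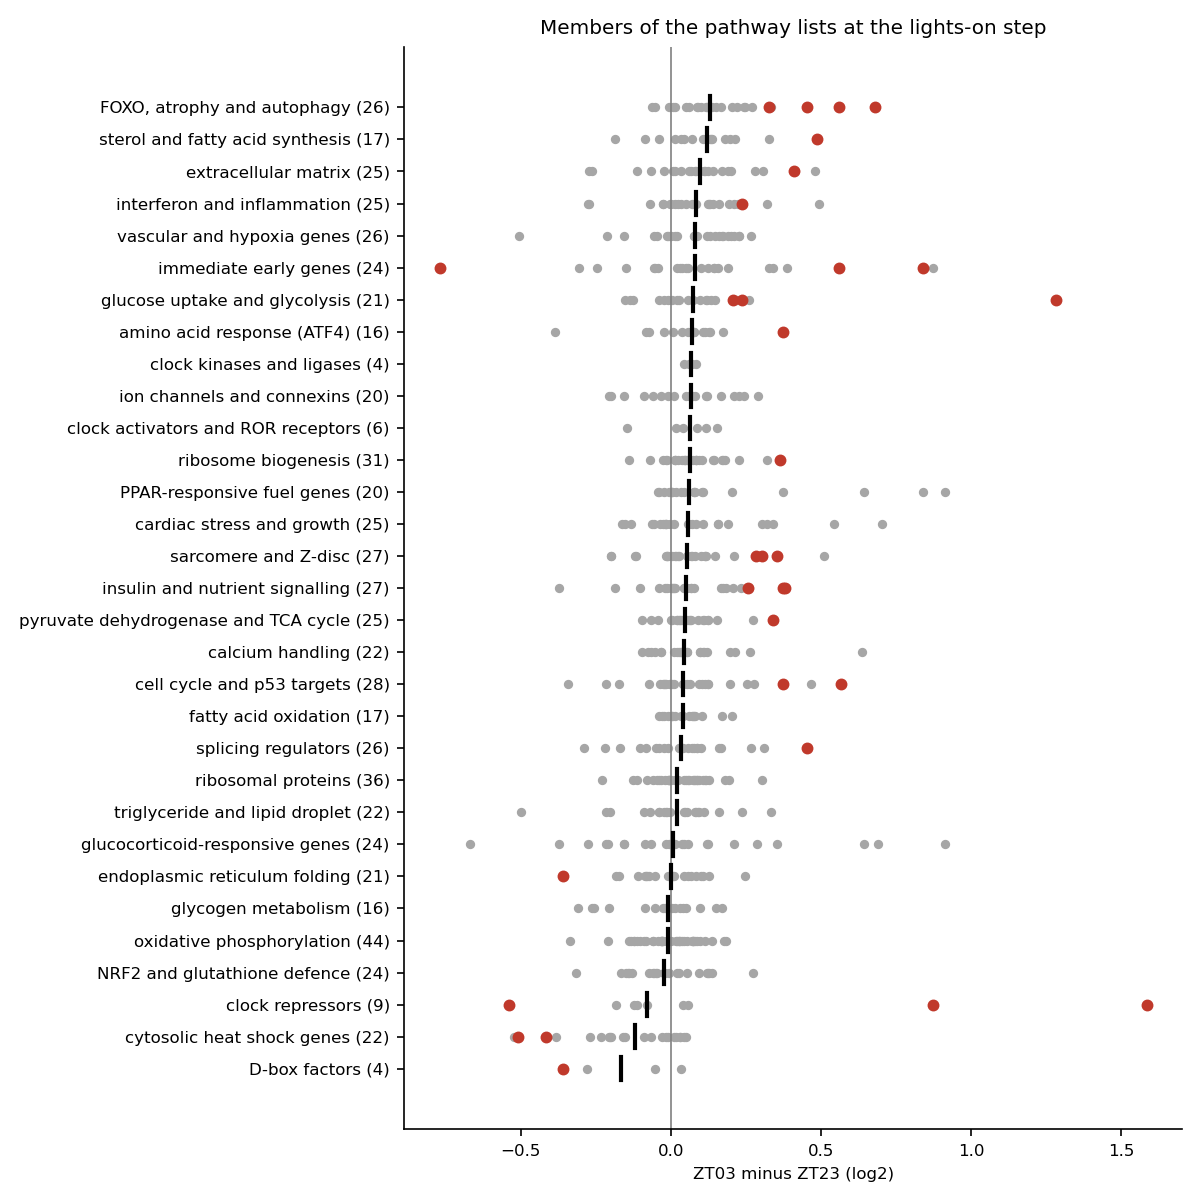
Step of each measured member (horizontal axis, ZT03 minus ZT23, log2) in the 31 pathway lists with over 1 measured gene (the cold-inducible list, with Cirbp alone, is left out), ordered by their median (black bar), with the number measured in brackets. Red points are genes called over all 22180, grey points are not. Of these 31, the FOXO, atrophy and autophagy list has the highest median (0.13), closely followed by sterol and fatty acid synthesis (0.12). The heat shock list lies below 0 (-0.12).

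The cold-inducible Cirbp rose, and 2 of 22 heat shock genes fell. Cirbp, an RNA-binding protein induced by mild cooling, had 0.17, 0.20, 0.18 and 0.12 at ZT03, against -0.44, -0.40, -0.34 and -0.42 at ZT23 (0.57 ± 0.072, 1.48-fold, adjusted p = 0.000463). Replicates were close together (SD 0.035 at ZT03 and 0.044 at ZT23), the groups lay far apart, and the call held in all 34 alternative settings. Its cold-inducible relative Rbm3 was not analysed here.

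Of the 22 measured cytosolic heat shock genes, 16 lay below 0 (49.6% of all genes did), 2 fell and none rose (0.126% and 0.559% of all genes), with a median step of -0.12. Hspa8, the constitutive HSP70 chaperone, had -0.09, -0.12, -0.07 and -0.18 at ZT03, against 0.24, 0.37, 0.32 and 0.64 at ZT23 (step -0.51 ± 0.104, adjusted p = 0.0215). All 4 of its probe sets were lower at ZT03, by -0.23 to -0.64. Chordc1, an HSP90 cochaperone, had 0.03, -0.08, -0.10 and -0.15 at ZT03, against 0.49, 0.38, 0.30 and 0.20 at ZT23 (step -0.42 ± 0.088, adjusted p = 0.0262). The groups did not overlap for either gene. Hspa8 lost its call without ZT03 replicates 2, 3 or 4 or ZT23 replicate 4 (adjusted p up to 0.102), and Chordc1 without ZT03 replicates 2, 3 or 4 or ZT23 replicates 1 or 2 (adjusted p up to 0.0979).

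The inducible HSP70 genes did not pass the test at lights-on. Hspa1a had -0.15, -0.26, -0.11 and -0.15 at ZT03, against 0.05, 0.07, 0.07 and 0.67 at ZT23 (step -0.38, adjusted p = 0.124), with ZT23 replicate 4 far above the other 3, and the step was -0.23 without it. Hspa1b, a near-identical gene that probes may not tell apart from it, had a step of -0.52 (adjusted p = 0.209). Dnajb5, an HSP40 cochaperone outside the list but among the 15 largest falls, fell by 0.44 (adjusted p = 0.0131), a call lost without ZT03 replicate 3 or ZT23 replicate 4 (adjusted p up to 0.0647).

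Of 21 genes of endoplasmic reticulum folding, 1 fell, against 0.126% of all genes. Herpud1, a component of endoplasmic reticulum-associated degradation, had -0.54, -0.57, -0.55 and -0.51 at ZT03, against -0.26, -0.19, -0.21 and -0.06 at ZT23 (step -0.36 ± 0.053, adjusted p = 0.00165). The ZT03 values fell within a narrow band below all ZT23 values. Ppp1r15a (GADD34), which reverses the translation block of the stress response, rose by 0.37 (adjusted p = 0.0215). It was the only riser among 16 genes of the ATF4 amino acid response, against 0.559% of all genes. It lost its call without ZT03 replicates 2, 3 or 4 or ZT23 replicate 1 (adjusted p up to 0.0808).

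**Figure D4:**
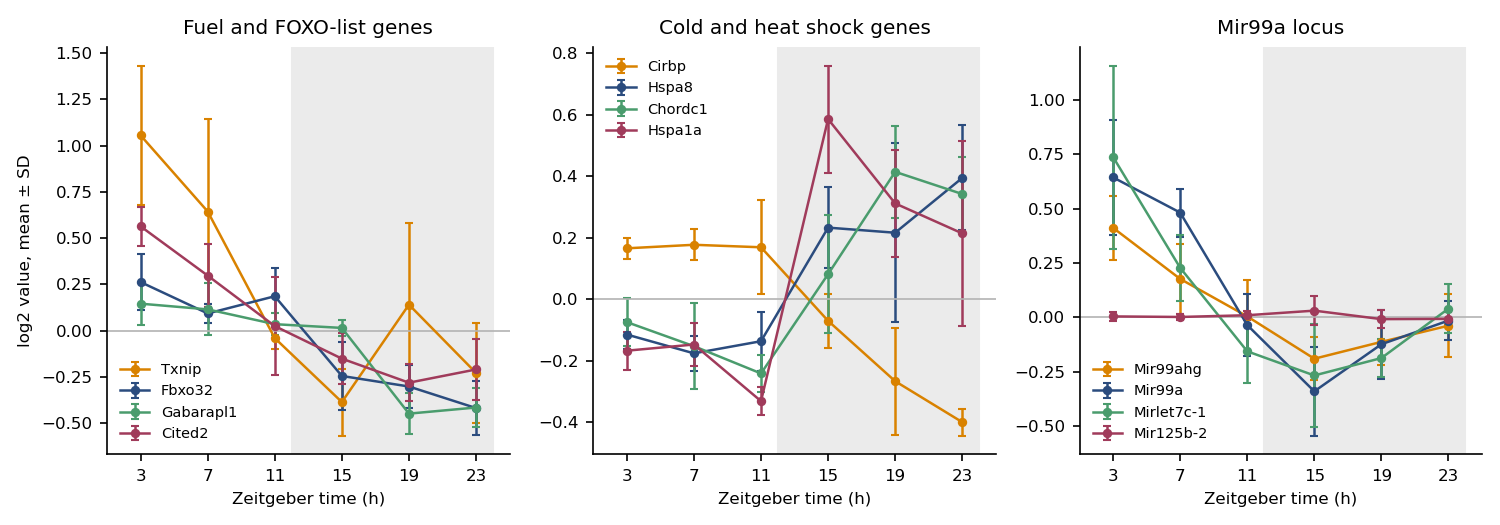
Mean log2 value (vertical axis) with SD over 4 arrays at each zeitgeber time (horizontal axis, hours, dark phase shaded) for fuel and FOXO-list genes (left), cold and heat shock genes (middle) and the Mir99a locus (right). Cirbp is higher in the light and lowest at ZT23 (-0.40), and Hspa1a is highest at ZT15 (0.59). Mir125b-2 stays near 0 at each time.

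Immediate early genes are transcribed within minutes of growth factor or stretch signals. Of 24 measured, 2 rose and 1 fell, against 0.559% and 0.126% of all genes. Ccn1 (CYR61), a secreted matrix protein and target of YAP and SRF, had 0.63, 1.02, 0.88 and 0.80 at ZT03, against -0.10, 0.13, 0.16 and -0.20 at ZT23 (0.84 ± 0.105, 1.79-fold, adjusted p = 0.000459), with no overlap. Egr1, a zinc finger transcription factor, had 0.18, 0.89, 0.88 and 0.43 at ZT03, against 0.02, 0.06, -0.03 and 0.09 at ZT23 (0.56 ± 0.108, adjusted p = 0.0141). The Egr1 rise was uneven over the ZT03 arrays, and the call was lost without ZT03 replicate 2 or 3 (adjusted p up to 0.0709). Fos, singled out with its values in view, had a step of 0.34 (adjusted p = 0.0596) and overlapping groups.

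Ier3, which encodes a survival protein of the stress response, fell the most of the 28 fallers. It had -0.74, -0.70, -0.64 and -0.62 at ZT03, against 0.00, -0.03, 0.03 and 0.38 at ZT23 (step -0.77 ± 0.141, 1.71-fold lower, adjusted p = 0.0108). Its 4 ZT03 values lay close together and below every ZT23 value. Without ZT23 replicate 4 the adjusted p was 0.0539. Gpr22, an orphan receptor expressed in heart and brain, had -0.67, -0.58, -0.60 and -0.51 at ZT03, against 0.08, 0.10, 0.10 and -0.02 at ZT23 (step -0.65 ± 0.099, 1.57-fold lower, adjusted p = 0.00194). Its call held without any 1 array. The other genes among the 15 largest falls were AF357425, a snoRNA (-0.52), Noxred1 (-0.52), Cfap410 (-0.43), Fam166a (-0.39), Ccdc69 (-0.38) and Ccnjl (-0.33), with adjusted p of 0.0121 to 0.0418. The groups of these 6 did not overlap, and all 6 lost their call without ZT23 replicate 4 (adjusted p of 0.0547 to 0.144).

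Other large rises concerned genes of varied function. Scin, an actin-severing protein, had 0.69, 0.73, 0.70 and 0.53 at ZT03, against -0.22, -0.06, 0.06 and -0.37 at ZT23 (0.81 ± 0.122, adjusted p = 0.00192). Nabp1, a single-stranded DNA-binding protein, rose by 0.77 (adjusted p = 0.00616), Plscr2, of the phospholipid scramblase family, by 0.69 (adjusted p = 0.000905) and Plk2, a polo-like kinase induced by stress, by 0.57 (adjusted p = 0.00434). For each of these 4 genes the groups did not overlap and no single array ended the call. Prrg1, a transmembrane protein with a Gla domain, rose by 0.62 (adjusted p = 0.028), a call lost without any of 5 arrays (adjusted p up to 0.124, without ZT23 replicate 4). The rise of Neat1, the long noncoding RNA of paraspeckles, was larger than most (0.65) but less even, with -0.24, 0.33, -0.06 and 0.34 at ZT03 and -0.37, -0.49, -0.55 and -0.84 at ZT23. Its adjusted p was 0.0426, and the call was lost without any of 14 arrays, with the highest adjusted p (0.165) without ZT23 replicate 4. Srsf5, a splicing factor, rose by 0.45 (adjusted p = 0.0112), with an adjusted p of 0.0539 without ZT23 replicate 4. It was the only riser among 26 splicing regulators, against 0.559% of all genes.

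A microRNA locus on chromosome 16 rose in 3 of its 4 named transcripts, which were chosen after their values were seen. MicroRNAs are cut from longer transcripts and pair with messenger RNAs through the seed, bases 2 to 8. Mir99ahg, a long noncoding RNA whose name marks it as the Mir99a host gene, is annotated at chr16:77329328-77558428 in GRCm38.p6, Mir99a at chr16:77598936-77599000, Mirlet7c-1 at chr16:77599657-77599750 and Mir125b-2 at chr16:77646273-77646343. The annotated end of Mir99ahg lies 40507 bases before Mir99a, so the annotation does not place the microRNAs inside it. The gap from Mir99a to Mirlet7c-1 is 656 bases, and from Mirlet7c-1 to Mir125b-2 46522 bases. The mature sequences, from RefSeq, are shown 5′ to 3′ with the seed in capitals because the 3 microRNAs of this locus share none of their seeds and so are separate products.
mmu-miR-99a-5p: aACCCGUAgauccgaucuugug
mmu-let-7c-5p: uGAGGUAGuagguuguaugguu
mmu-miR-125b-5p: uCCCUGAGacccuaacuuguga
A probe set named for a microRNA gene on an array of total RNA cRNA reads the primary transcript or hairpin region and does not show the mature microRNA.

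Mir99a had 0.91, 0.72, 0.66 and 0.28 at ZT03, against 0.06, -0.01, -0.14 and 0.03 at ZT23 (0.66 ± 0.114, 1.58-fold, adjusted p = 0.0069). Mirlet7c-1 had 1.31, 0.77, 0.49 and 0.37 at ZT03, against 0.01, -0.07, 0.03 and 0.20 at ZT23 (0.70 ± 0.147, adjusted p = 0.0262). Mir99ahg had 0.55, 0.46, 0.43 and 0.20 at ZT03, against 0.08, -0.04, 0.05 and -0.24 at ZT23 (0.45 ± 0.093, adjusted p = 0.0243). In all 3, ZT03 replicate 1 was the highest array and replicate 4 the lowest at ZT03, yet no ZT03 value reached the ZT23 range. The Mir99a call held without any 1 array, whereas those of Mirlet7c-1 and Mir99ahg were each lost without any of 5 (adjusted p up to 0.0791 and 0.111), ZT23 replicate 4 among them (adjusted p = 0.0513 and 0.111). Mir125b-2, the far end of the locus, lay between -0.02 and 0.03 at ZT03, against -0.04 to 0.03 at ZT23 (step 0.01, adjusted p = 0.934). Its means stayed between -0.01 and 0.03 at all 6 times, and centred values do not show whether the probe set had any signal.

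Of 27 sarcomere and Z-disc genes, 3 rose, against 0.559% of all genes: Mybpc3 (myosin-binding protein C, 0.35, adjusted p = 0.0262), Myom2 (an M-band protein, 0.30, adjusted p = 0.0469) and Lmod2 (which elongates thin filaments, 0.28, adjusted p = 0.0489). None of the 3 was called without ZT23 replicate 4 (adjusted p = 0.115, 0.169 and 0.169). Col3a1, a fibrillar collagen, rose by 0.41 (adjusted p = 0.0374), alone among 25 extracellular matrix genes, and Pdgfra, a receptor of fibroblasts, by 0.38 (adjusted p = 0.0415). These were also the 2 called genes of 12 fibroblast markers, of which 11 lay above 0 (median 0.089), against 50.4% of all genes. Array means of the fibroblast list overlapped, with -0.020 to 0.117 at ZT03 and -0.098 to -0.012 at ZT23. Col3a1 and Pdgfra both lost their call without ZT23 replicate 4 (adjusted p = 0.105 and 0.102). No gene was called among 25 of cardiac stress and growth, 22 of calcium handling, 20 of ion channels and connexins, 36 ribosomal proteins, 24 of NRF2 and glutathione defence or 26 vascular and hypoxia genes.

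The called genes were set against lights-off, which uses none of the same arrays. ZT15 lay below ZT11 for 102 of the 124 risers (82.3%), against 46.0% of all genes, and above ZT11 for 23 of the 28 fallers (82.1%), against 54.0% of all genes. The median lights-off step was -0.11 for risers, 0.14 for fallers and 0.0063 over all genes. Over all 22180 genes the correlation of the 2 steps was -0.27 (Pearson), a description across genes that are not independent. The lights-off steps of some lights-on calls were -0.56 for Nr1d1 (adjusted p = 0.136), 0.36 for Cry1 (adjusted p = 0.0668), -0.43 for Fbxo32 (adjusted p = 0.0638) and -0.24 for Cirbp (adjusted p = 0.262). Since these genes were chosen for their lights-on step, the sizes of the 2 steps are not compared.

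**Figure D5:**
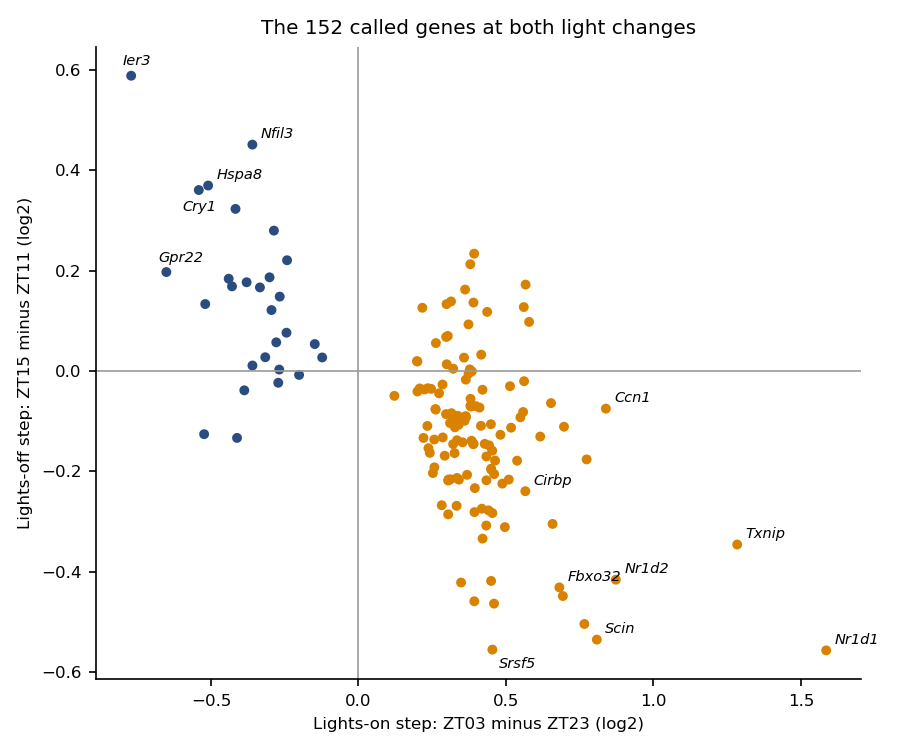
Lights-on step (horizontal axis, ZT03 minus ZT23, log2) and lights-off step (vertical axis, ZT15 minus ZT11, log2) of the 152 called genes, risers in orange and fallers in blue. Most risers, 102 of 124, lie below the horizontal line, and most fallers, 23 of 28, above it.

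Subtracting the lights-off step from the lights-on step gave 290 called genes (1.31%), 192 positive and 98 negative. This contrast equals the sum of ZT03 and ZT11 minus that of ZT15 and ZT23, so it also calls genes that only differ between light and dark. The 5 largest positive values were those of Nr1d1 (2.14, adjusted p = 1.21e-05), Txnip (1.63, adjusted p = 0.00913), Ucp3 (1.60, adjusted p = 0.0168), Lncpint (1.40, adjusted p = 0.0106) and Pdk4 (1.40, adjusted p = 0.0348). The 5 largest negative ones were those of Ppbp (-3.38, adjusted p = 0.0144), Hspa1b (-1.49, adjusted p = 0.00318), Ier3 (-1.36, adjusted p = 0.00104), Gp9 (-1.31, adjusted p = 0.0377) and Hspa1a (-1.30, adjusted p = 0.000108). Ppbp and Gp9 are platelet genes. Ppbp was -0.19, -0.24, -0.18 and -0.22 at ZT03, against 1.93, 0.67, 1.72 and 2.10 at ZT23 (step -1.81, adjusted p = 0.103), and did not pass the test at lights-on despite the gap. It did pass with the 8 arrays alone (adjusted p = 0.0406), with array weights, after quantile normalization and without ZT15 replicate 1. Without ZT23 replicate 4 the adjusted p of Ppbp was 0.285. Gp9 passed only with the 8 arrays alone (adjusted p = 0.0376). Of these 10 genes, Hspa1a (0.92, adjusted p = 0.000767) and Hspa1b (0.97, adjusted p = 0.0174) passed the test at lights-off itself. The sum of the 2 steps grows where a gene moves the same way at both light changes, but also where it moves at 1 only. It called 0 genes in limma (0.0%), with 1536 at an unadjusted p below 0.05. Whether any gene moved alike at both was not tested by itself.

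Over the 6 times, 46 of the 124 risers had their highest mean at ZT03 and their lowest at ZT23, and 12 of the 28 fallers the reverse. The highest mean fell at ZT03 for 85 of the 124 risers, at ZT07 for 18, at ZT11 for 20 and at ZT15 for 1. The lowest mean fell at ZT23 for 80 risers, at ZT19 for 17, at ZT15 for 20 and at ZT11 for 7. Of the 28 fallers, 19 had their lowest mean at ZT03 and 18 their highest at ZT23. These counts follow in part from the choice of genes by the ZT03 and ZT23 arrays. The median riser had 0.18, 0.12, 0.03, -0.06, -0.09 and -0.15 from ZT03 to ZT23, and the median faller -0.13, -0.09, -0.03, 0.09, 0.09 and 0.16. The 4 times that did not choose the genes lay in between. Sox4, a developmental transcription factor chosen after its values were seen, had its trough at ZT15, with means of 0.58, 0.06, -0.41, -0.44, 0.07 and 0.06 and a rise of 0.51 across lights-on (adjusted p = 0.00104).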

How the data were processed

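The deposited table holds 1 value per probe set and array, read as a log2 value. Base 2 and the direction, more RNA as a higher value, are assumptions, and how the authors summarised and normalized the deposited log2 values is not given in the sources used here. Every probe set has a median of 0 across the 24 arrays (to within 5e-07), so levels and signal over background are unknown, and the number of arrays limits the precision. Of 34351 probe sets, 23521 name 1 gene in the platform annotation, 1814 several and 9016 none. Probe sets of a gene were averaged (1082 genes have over 1), and a RefSeq table of GRCm38.p6 changed 0 symbols.

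Time means were fitted to 22180 genes in limma 3.58.1 under R 4.3.3, tested on simulated data first. Genes were named by rule: all clock list members, the 15 largest called rises and the 15 largest called falls (microRNA, predicted and clone-named genes left out), up to 3 of the smallest p of each other list, and the 5 largest in each direction for the lights-on step minus the lights-off step. Others are said to have been chosen after their values were seen. The step, the 32 pathway lists, the 16 marker lists and the tests were chosen with earlier results of these data known, the step after all 6 neighbouring steps had been counted. Alternatives left out each array, changed the arrays, the weights, the normalization or the probe set rule, or added a replicate block. Same-numbered ZT03 and ZT23 arrays deviated together with r of -0.0604, 0.0843, 0.0228 and -0.00975, so numbers were not taken as pairs. The arrays of the other times were not checked in this way, so an effect shared by equal numbers across the series is not excluded. P-values weigh each step against the spread between arrays of the same time, which the main fit shares over all 24 arrays.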

Additional observations from a re-analysis of the deposited data

Results flagged for a closer look

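Among the 158 groups of 4 arrays looked at for the 79 genes named in the text, 8 held an array far from the other 3 by Dixon's test, and chance gives about 1 in 20. ZT23 replicate 4 was that array for 4 genes: Fam166a (0.42, against 0.21 to 0.24 on the others), Ier3 (0.38, against -0.03 to 0.03), Hspa1a (0.67, against 0.05 to 0.07) and Ciart (-0.13, against -0.41 to -0.38). ZT03 replicate 4 was the high array for Dbp (-0.76, against -1.17 to -1.11) and Lncpint (0.65, against -0.12 to 0.01). ZT03 replicate 1 was the low array for Mybpc3 (-0.046, against 0.12 to 0.13), and ZT23 replicate 3 the low array for Nfil3 (0.22, against 0.44 to 0.45).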

How the results depend on the processing

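The replicate block over 24 arrays gave 110 calls at lights-on, against 152 in the fit without it. The labels do not say whether equal replicate numbers share a batch or a day. With the 8 arrays alone there were 65 calls, 48 higher and 17 lower, 51 of them shared with the 152, and with the block added 9, 7 higher and 2 lower. With the 8 arrays alone the adjusted p of Usp2 was 0.147 and that of Mir99a 0.0679. Without the 3 arrays of lowest weight (ZT15 replicate 1, ZT23 replicate 4 and ZT07 replicate 4), a setting chosen after seeing the data, 86 were called, 64 higher, 71 of them shared, and the sum of the 2 steps called 5. In that setting the FOXO list had 4 calls, the heat shock list 1, the sarcomere list 2 (Mybpc3 and Myom2 no longer among them) and the insulin list 0. Calls lower at ZT03 were 44 with array weights and 47 after quantile normalization, against 28. Leaving out 1 array gave 51 to 187 calls, 42 to 150 higher and 9 to 42 lower, 0 to 5 for the sum of the steps and 199 to 436 for their difference, the highest without ZT11 replicate 1. The cause was not tested in any of these. Of the 51 called genes named in the text, 21 were called whichever array was left out, and 6 in all 34 settings: Nr1d1, Cirbp, Ccn1, Scin, Plscr2 and Gpr22. Of the 28 named genes that were not called, 5 passed in some setting: Fos, Gp9, Lncpint, Pdk4 and Ppbp. A filter on dim genes could not be run on centred values.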
